A study of Homo sapiens with 6 samples.

Results

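The genes described here are 10 secreted signals of inflammation: the cytokines TNF, IL6, IL11, LIF and IL23A and the chemokines CXCL1, CXCL2, CXCL3, CXCL8 and CCL20. They were taken by name from the deposited count table, in which each name had 1 row, out of 39293 genes with 1 row per name. The cells were SW480, an epithelial line established from a human colorectal cancer. In 3 wells the medium held dihydroartemisinin (DHA), an antimalarial drug into which artemisinin derivatives are converted in the body, at 20 µg/mL for 4 h, and in 3 control wells it held 0.1% DMSO, the solvent, for 4 h. The DMSO content of the DHA wells is not stated, and separate cultures are not mentioned for the wells, so each p-value reflects well-to-well spread only, which may be technical. Poly(A) RNA was sequenced, and the DHA libraries held 14291726 to 16653074 counts and the control libraries 15807037 to 18938456.

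Cytokines and chemokines are small secreted proteins that carry signals between cells. TNF acts through the receptors TNFRSF1A and TNFRSF1B. CXCL1, CXCL2, CXCL3 and CXCL8 draw neutrophils through CXCR1 and CXCR2, and CCL20 draws lymphocytes and dendritic cells through CCR6. IL6, IL11 and LIF signal through receptor complexes that share the chain IL6ST, also called gp130, and IL23A is the subunit that pairs with IL12B to form interleukin 23. Their genes are classical targets of the transcription factors NF-kB and AP-1, and many of their mRNAs carry AU-rich elements that shorten their life. Epithelial tumour cells of the colon can make several of these signals themselves.

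Before any test, 3 of the 10 genes were near zero in control, with 3 counts or fewer in each control library: TNF, IL6 and CCL20. CXCL2 and IL23A were low as well, and together with those 3 genes they made 5 with a control mean under 1 CPM (counts per 1000000 counts of the library). In DHA only IL6 and CCL20 stayed under a mean of 1 CPM. LIF alone was abundant in both conditions. Of the summed CPM of the 10 genes, LIF made up 64.7% to 68.3% in the DHA libraries and 88.3% to 90.4% in the control libraries. Without LIF the other 9 genes summed to between 29.9 and 39.0 CPM in DHA and between 5.28 and 6.14 CPM in control.

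**Figure D1:**
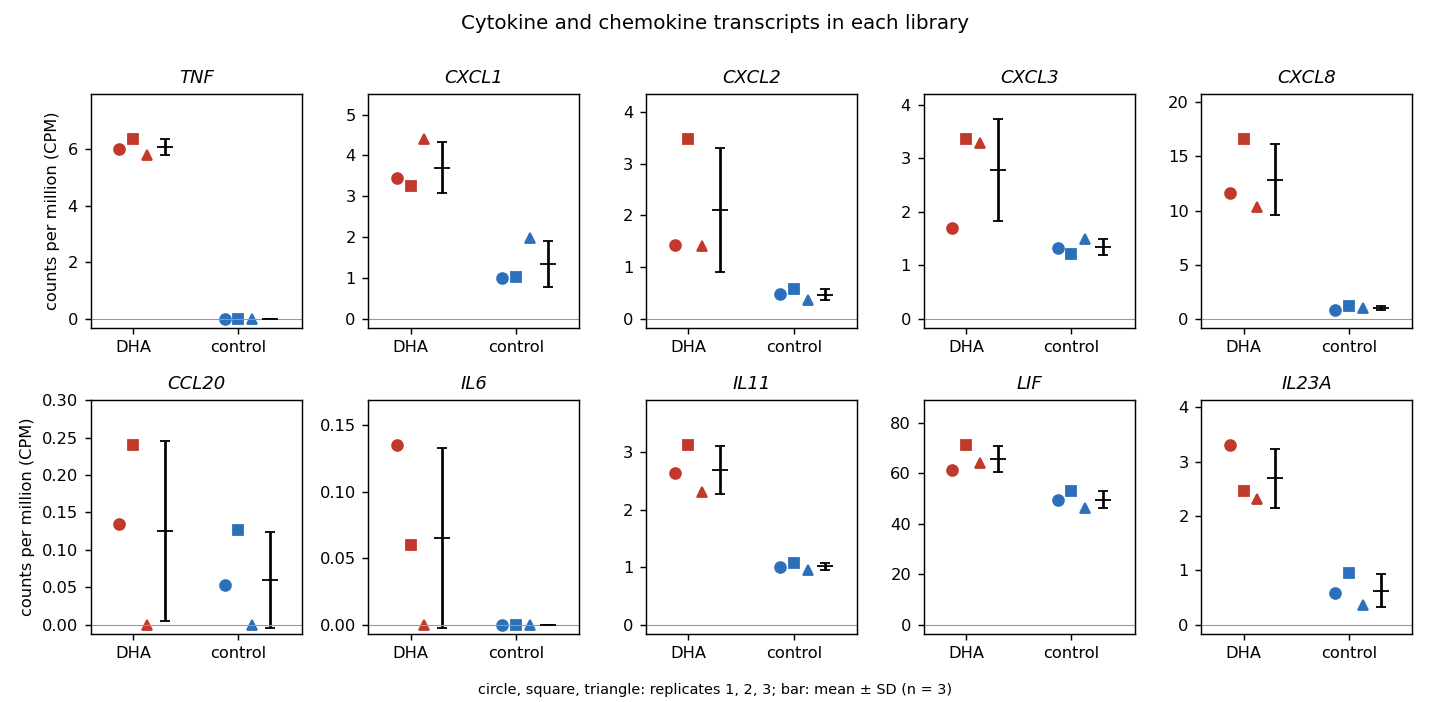
CPM of each of the 10 genes in each library, with DHA left of control, each panel on its own linear scale and bars giving the mean ± SD of 3 libraries. DHA and control libraries overlap for CCL20 and IL6, whose axes end below 1 CPM, and stand apart for the other 8 genes, with TNF at 0 in all control libraries.

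In 8 of the 10 genes every DHA library lay above every control library, a pattern that 27.0% of the 15811 genes tested showed, with 38.4% showing the opposite one. A gene was tested only if it passed a filter at about 10 counts, here 0.616 CPM, in 3 libraries. IL6 and CCL20 passed it in no library. TNF and CXCL2 passed it in the 3 DHA libraries and no control library, and IL23A in the 3 DHA libraries and 1 control library, so that these 3 genes could only enter the test because they were high in DHA, and counts over the tested genes are a description. The other 5 genes passed it in all 6 libraries. All 8 tested genes were higher in DHA at an adjusted p under 0.05 by the quasi-likelihood test of edgeR, adjusted by the method of Benjamini and Hochberg over all genes. The background is broad, since 59.6% of all genes tested were called, 29.6% higher and 30.1% lower, and 10.7% were called higher with a log2 fold change of at least 1. All but LIF passed that second limit. CXCL3 fell below it with an offset for GC content and length, at a log2 fold change of 0.97. Among tested genes with a control mean under 1 CPM, 50.8% were called higher, a share that includes genes which passed the filter through DHA alone. In bulk RNA a larger share of expressing cells and more RNA per cell cannot be told apart.

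**Figure D2:**
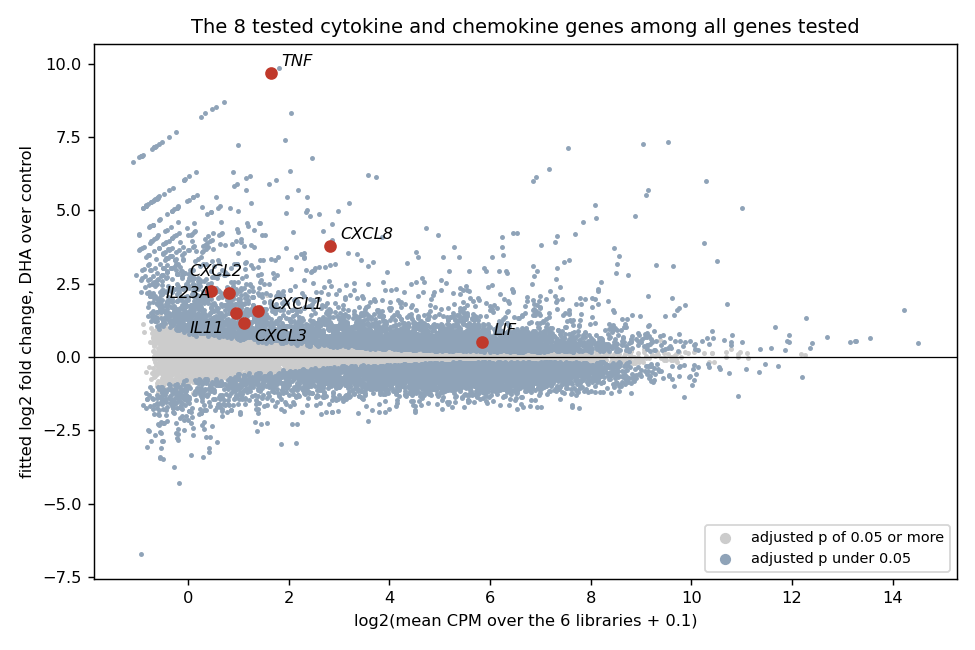
Fitted log2 fold change of DHA over control against log2 of the mean CPM over the 6 libraries plus 0.1, for all 15811 genes tested, with the 8 tested cytokine and chemokine genes in red. TNF sits at the top edge because its control counts are 0, and the height of such a point depends on a prior count of the fit, while LIF lies near the dense band of small changes at a higher level.

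TNF, the founding member of the tumour necrosis factor family (chromosome 6, 31575567 to 31578336), had 89, 106 and 83 counts in the DHA libraries and 0, 0 and 0 in the control libraries. This came to 6.06 ± 0.282 CPM in DHA (SD, n = 3) against no read in 3 control libraries. Set at 3 counts over the whole control group, the ratio of DHA to control was 104, and the exact 95% interval of the ratio, for counting error only, starts at 84.1. TNF entered the test through its DHA libraries alone, so no p is given. The DHA libraries differed little among themselves, between 5.81 and 6.37 CPM. Across the whole table, 5067 genes had no control count and at least 1 count in DHA, and of those only 1 gene besides TNF reached a DHA mean as high as that of TNF. Its 50-base stretches occur in no other annotated transcript, so no exact copy of that length elsewhere could take its reads.

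LTA encodes lymphotoxin alpha, a ligand of the same receptors, and ends 1243 bases before TNF on the same strand. It had 164, 134 and 152 counts in DHA and 3, 2 and 7 in control, with a log2 fold change of 5.46 ± 0.31 (SE). With control replicate 3 left out the log2 fold change was 6.13. No control library reached the low-count filter for LTA, which entered the test through DHA alone, so no p is given. LTB, the next gene on the other side of TNF, had 7, 4 and 0 counts in DHA and 2, 2 and 0 in control and was not tested. NFKBIL1, upstream of LTA and chosen here after its values were seen, had 278, 366 and 280 counts in DHA and 143, 117 and 104 in control, a log2 fold change of 1.604 ± 0.12 and an adjusted p of 5.82e-07 in edgeR. LST1 and NCR3, beyond LTB and looked up in the same way, had 4 counts or fewer in every library.

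The chemokines that draw neutrophils, CXCL8, CXCL1, CXCL3 and CXCL2, lie in 1 cluster on chromosome 4 that spans 358788 bases from CXCL8 to CXCL2. Their promoters are printed because CXCL1, CXCL2 and CXCL3 share a block with the same motif letters, and because CXCL8 joins that motif with a second one. Each runs from 250 bases before to 50 bases after the RefSeq start site, build GRCh38.p14, 5′ to 3′ on the gene's strand, and the capitals mark kappaB matches (GGNNNTTCC, or a longer form with 1 more G in front, which contains it) and AP-1 matches (TGANTCA), searched on both strands.
CXCL1, chr4:73869143-73869442, plus strand: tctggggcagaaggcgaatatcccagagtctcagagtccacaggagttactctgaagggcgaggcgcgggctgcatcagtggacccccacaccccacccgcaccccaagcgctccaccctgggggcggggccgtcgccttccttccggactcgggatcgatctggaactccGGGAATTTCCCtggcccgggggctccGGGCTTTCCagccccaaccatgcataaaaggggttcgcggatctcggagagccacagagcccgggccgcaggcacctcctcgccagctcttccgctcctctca
CXCL2, chr4:74099146-74099445, minus strand: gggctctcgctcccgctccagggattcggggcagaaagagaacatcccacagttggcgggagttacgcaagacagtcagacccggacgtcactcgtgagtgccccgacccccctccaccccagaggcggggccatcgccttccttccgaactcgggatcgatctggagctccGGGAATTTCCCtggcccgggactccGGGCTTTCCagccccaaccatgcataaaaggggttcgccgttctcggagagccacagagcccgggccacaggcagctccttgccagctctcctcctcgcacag
CXCL3, chr4:74038640-74038939, minus strand: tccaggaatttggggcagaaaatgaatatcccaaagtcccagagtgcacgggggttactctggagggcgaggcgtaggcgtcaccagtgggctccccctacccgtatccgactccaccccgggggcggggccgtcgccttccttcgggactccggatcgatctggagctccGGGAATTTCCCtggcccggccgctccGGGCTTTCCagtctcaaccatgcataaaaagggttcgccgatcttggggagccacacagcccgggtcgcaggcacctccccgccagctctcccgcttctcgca
CXCL8, chr4:73740319-73740618, plus strand: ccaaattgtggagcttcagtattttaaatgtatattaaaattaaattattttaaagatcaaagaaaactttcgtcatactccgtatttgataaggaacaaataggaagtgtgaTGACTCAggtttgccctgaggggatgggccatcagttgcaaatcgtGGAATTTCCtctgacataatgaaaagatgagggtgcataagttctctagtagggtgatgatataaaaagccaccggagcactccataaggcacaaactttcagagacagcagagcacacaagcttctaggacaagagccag
In CXCL1, CXCL2 and CXCL3 the longer kappaB run starts 79, 78 and 79 bases upstream of the start site and also matches on the opposite strand 1 base on, and a second, shorter match starts 53 bases upstream in each. CXCL8 holds the shorter form 91 bases upstream and an AP-1 match 137 bases upstream. Over aligned bases the promoters of CXCL1 and CXCL3 were 87.0% identical, those of CXCL1 and CXCL2 85.9% and those of CXCL2 and CXCL3 83.6%, whereas CXCL8 matched the other 3 at 54.1% to 58.5%.

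CXCL8, interleukin 8, had the largest fold change of the 7 tested genes with control counts. It had 172, 277 and 148 counts in DHA and 16, 19 and 16 in control, or 12.9 ± 3.32 CPM in DHA and 1.002 ± 0.182 CPM in control (SD, n = 3 each). The groups were far apart, although the DHA library of replicate 2 stood above the other DHA libraries. The log2 fold change was 3.78 ± 0.23 (SE), a 13.8-fold difference with an edgeR adjusted p of 1.42e-07, and 191 of the 15811 genes tested had a larger one. None of its 50-base stretches occurs in another annotated transcript.

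CXCL1, CXCL2 and CXCL3, formerly named GRO alpha, beta and gamma, had smaller fold changes. CXCL2 had 21, 58 and 20 counts in DHA and 9, 9 and 6 in control. The spread in DHA came from replicate 2, and without that library its log2 fold change was 1.71 in place of 2.26 ± 0.43 (SE). CXCL1 had 51, 54 and 63 counts in DHA and 19, 16 and 33 in control, a log2 fold change of 1.57 ± 0.28, with the control library of replicate 3 above the other controls. CXCL3 had 25, 56 and 47 counts in DHA and 25, 19 and 25 in control. Its lowest DHA library, at 1.69 CPM, was barely above its highest control library, at 1.499 CPM, and its log2 fold change of 1.15 ± 0.29 was the smallest of the 4. CXCL2 entered the test through its DHA libraries alone, so no p is given for it. In edgeR the adjusted p was 0.000551 for CXCL1 and 0.00498 for CXCL3. Whether the fold changes of these genes differ from each other was not tested.

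The coding sequences of these 3 genes are 90.7% to 94.4% identical, and 5.73% of the 50-base stretches of CXCL1, 9.24% of those of CXCL2 and 5.26% of those of CXCL3 also occur in another of them, so that a part of their counts may be divided uncertainly. Other ligands of the cluster were nearly silent. CXCL5, which also draws neutrophils, had 0 counts in all 6 libraries, and CXCL6 had 1 count in 1 DHA library and 0 elsewhere. PF4, PF4V1 and PPBP, the ligands known from platelets and looked up by position after the values of the cluster were seen, had 0 counts in all 6 libraries.

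CCL20, the ligand of CCR6, stayed at the limit of detection. It had 2, 4 and 0 counts in DHA and 1, 2 and 0 in control, overlapping groups with a ratio of 2.25 and an exact 95% interval from 0.480 to 13.9, which covers counting error only. Tested with no filter on low counts, its adjusted p was 0.526 in edgeR and 0.662 in DESeq2. A difference was not detectable at this depth. CCL20 also holds a kappaB run, 79 bases upstream on the opposite strand.
CCL20, chr2:227813592-227813891, plus strand: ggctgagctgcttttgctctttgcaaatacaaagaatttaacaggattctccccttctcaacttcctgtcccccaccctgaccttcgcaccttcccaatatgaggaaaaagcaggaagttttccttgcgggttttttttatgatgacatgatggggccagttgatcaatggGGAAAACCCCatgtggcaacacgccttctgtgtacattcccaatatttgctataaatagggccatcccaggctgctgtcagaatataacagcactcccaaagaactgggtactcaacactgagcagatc

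IL6, a main driver of the acute phase response, was absent or nearly so. It had 2, 1 and 0 counts in DHA and 0, 0 and 0 in control, at or under 3 counts in each group, so no fold is given. With no filter on low counts the adjusted p was 0.240 in edgeR, and DESeq2 gave an unadjusted p of 0.379 and no adjusted one. The 3 counts of DHA came from 2 libraries, and 22.4% of the 50-base stretches of IL6 also lie in an overlapping antisense gene, AC073072.1, which had 1 count in all. Its promoter is printed beside those of the chemokines because it holds the longer kappaB run 73 bases upstream.
IL6, chr7:22726950-22727249, plus strand: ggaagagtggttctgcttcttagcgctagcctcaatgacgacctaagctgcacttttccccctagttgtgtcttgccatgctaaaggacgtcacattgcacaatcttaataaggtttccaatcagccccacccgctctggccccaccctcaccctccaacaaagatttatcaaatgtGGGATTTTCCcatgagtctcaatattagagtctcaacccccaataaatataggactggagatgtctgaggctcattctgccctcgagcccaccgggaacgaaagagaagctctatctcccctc

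The relatives of IL6 were readily counted. IL11, which acts on epithelium, stroma and megakaryocytes, had 39, 52 and 33 counts in DHA and 19, 17 and 16 in control. That was 2.69 ± 0.410 CPM in DHA and 1.01 ± 0.0587 CPM in control (SD, n = 3 each), with no overlap. Its log2 fold change was 1.503 ± 0.24 (SE), with an edgeR adjusted p of 0.000237. Of the 50-base stretches of IL11, 2.46% also occur in transcripts of many other genes, LASP1 and WDR31 among them. LIF, the leukemia inhibitory factor (chromosome 22, 30240447 to 30246851), had 910, 1187 and 919 counts in DHA and 939, 835 and 770 in control. As CPM the libraries were at 61.4, 71.3 and 64.3 in DHA and at 49.6, 52.8 and 46.2 in control, so the groups separate once library totals are taken into account. LIF thus rose by 0.50 ± 0.08 on the log2 scale, a 1.42-fold difference with an adjusted p of 0.000189, and 0.32 with an offset for GC content and length. Among all genes tested, 23.9% had a larger log2 fold change than LIF.

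LIF shares 4.34% of its 50-base stretches with antisense genes at both ends, and no source used here gives the strand setting of the counting, so reads of either strand cannot be told apart there. AC004264.1, which overlaps the 5′ end of LIF, had 2, 2 and 4 counts in DHA and 14, 26 and 27 in control, and LIF-AS1 had 5, 1 and 7 in DHA and 1, 0 and 0 in control. Both are small beside the counts of LIF. Over the 6 libraries the genes closest to LIF in centred log2(CPM + 1) were ABTB2, AC068473.3 and COQ3, with root mean square differences of 0.0117, 0.0232 and 0.0240, and those closest to CXCL8 were CDH23, CSRNP1 and SERTAD1, with 0.126, 0.127 and 0.133. These are descriptions over 6 libraries in 2 groups. The 1 added to each CPM shrinks the changes of low genes and so bears on which genes are closest. CDH23 was at 0.211, 0.316 and 0.240 CPM in control and at 6.28, 8.59 and 7.07 CPM in DHA.

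IL23A, the p19 subunit of interleukin 23 (chromosome 12, 56334174 to 56340410), had 49, 41 and 33 counts in DHA and 11, 15 and 6 in control. The lowest DHA library, at 2.31 CPM, stood above the highest control library, at 0.949 CPM. The log2 fold change was 2.19 ± 0.33 (SE), a 4.57-fold difference, and 2.57 without the control library of replicate 2. IL23A reached the low-count filter in only 1 control library, so no p is given. Its partner subunit IL12B had 10, 16 and 9 counts in DHA and 0, 3 and 2 in control. IL12B reached the filter in no control library, so that its call as higher is a description. IL12A, which pairs with the same subunit to form interleukin 12, had 35, 60 and 37 counts in DHA and 70, 47 and 70 in control and did not pass. IL11 and IL23A each hold 1 AP-1 match and no kappaB match in the promoter window.
IL11, chr19:55370414-55370713, minus strand: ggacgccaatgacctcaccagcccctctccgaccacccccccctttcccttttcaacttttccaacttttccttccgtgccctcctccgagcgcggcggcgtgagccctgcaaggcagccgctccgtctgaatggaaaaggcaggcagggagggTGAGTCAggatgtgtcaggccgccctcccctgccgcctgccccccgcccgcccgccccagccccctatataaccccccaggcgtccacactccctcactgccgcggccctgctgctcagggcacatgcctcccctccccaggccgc
IL23A, chr12:56338634-56338933, plus strand: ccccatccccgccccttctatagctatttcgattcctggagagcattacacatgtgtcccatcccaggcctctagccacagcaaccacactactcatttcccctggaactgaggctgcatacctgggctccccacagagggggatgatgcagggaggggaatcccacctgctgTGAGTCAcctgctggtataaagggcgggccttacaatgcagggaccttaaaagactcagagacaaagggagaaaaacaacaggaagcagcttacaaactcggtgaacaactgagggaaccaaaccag

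Promoter sequences were found for 9 of the 10 genes, not for LIF. The longer kappaB letters were in 5 of the 9 and in 6.52% of 35116 promoters of the same length, the shorter ones in 6 of 9 and 20.1%, AP-1 letters in 3 of 9 and 7.71%, a C/EBP form (TTGCNNAA) in 2 of 9 and 10.5%, and the cyclic AMP element (TGACGTCA) in 0 of 9 and 1.85%. CXCL1, CXCL2 and CXCL3 are among both the 5 and the 6 genes with kappaB letters. Their promoters are 83.6% to 87.0% identical over aligned bases, so they are not separate cases to set against those shares. A match is a description of letters, not of binding. IL6 and CCL20, at the limit of detection in both conditions, hold the longer kappaB letters. TNF, with the largest fold but, in CPM, a smaller difference than LIF and CXCL8, holds none of the 5 motifs in its window, which says only that these letters are not there.

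**Figure D3:**
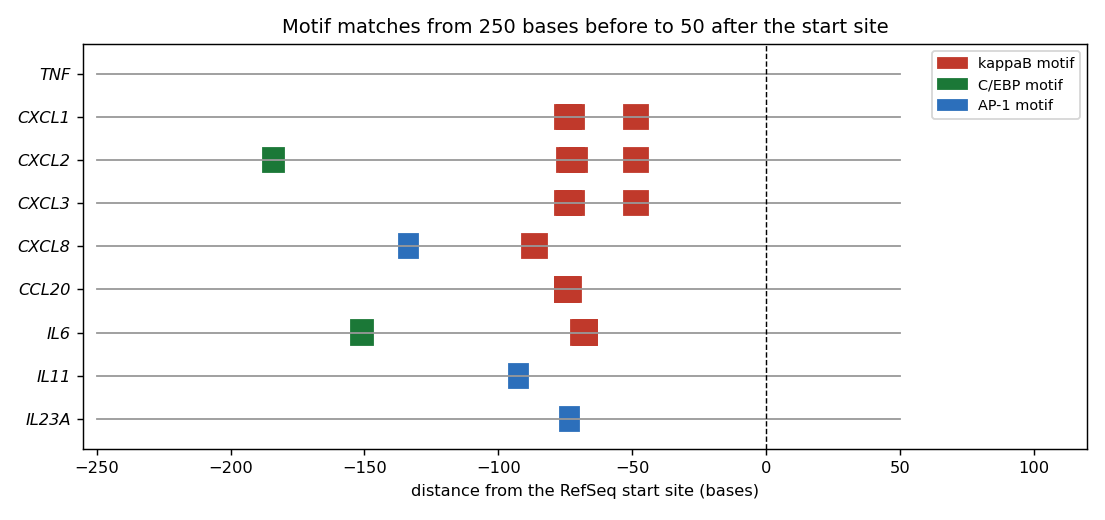
Position of motif matches in the promoters of 9 genes, drawn from 250 bases before to 50 bases after the RefSeq start site (dashed line), with each box covering the matched bases. The kappaB boxes of CXCL1, CXCL2 and CXCL3 fall within 1 base of the same 2 places, and IL11 and IL23A carry an AP-1 box only.

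At the other end of the mRNA, the AU-rich nonamer TTATTTATT was found in the 3′ untranslated region of 8 of the 10 genes, IL6 and CCL20 being the exceptions, against 8.04% of 12867 coding genes tested. Of the 10 genes, 4 had 3 or more nonamers, against 0.637% of those genes. TNF and CXCL2 had 5 each, IL11 had 6, CXCL1 had 3, LIF had 2 and CXCL3, CXCL8 and IL23A had 1 each. The densest stretch of 30 bases is given for the 4 genes with 3 or more, from GENCODE release 29 transcripts, with nonamers in capitals.
TNF: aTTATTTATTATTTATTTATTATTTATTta
CXCL1: taggagaagtcttctatTTATTTATTTATT
CXCL2: gtcttctatTTATTTATTTATTTATTTATT
IL11: ccaaagccagatcTTATTTATTTATTTATT
The pentamer ATTTA occurred 2.18 times per 1000 bases in LIF and between 5.56 and 13.99 times in the other 9 genes, where the median of the coding genes tested was 1.48. IL6 and CCL20 lacked the nonamer but held 6 and 3 pentamers.

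Divided by exon length, the 10 genes took a different order in the 2 conditions. In DHA the order of the level was LIF at 16.5 ± 1.27 CPM per kb, CXCL8 at 5.66 ± 1.46, TNF at 3.62 ± 0.168, CXCL1 at 2.85 ± 0.481, IL23A at 2.27 ± 0.453, CXCL2 at 1.40 ± 0.798, CXCL3 at 1.253 ± 0.426, IL11 at 1.01 ± 0.153, CCL20 at 0.0785 ± 0.0755 and IL6 at 0.0314 ± 0.0327 (SD, n = 3). With these exon lengths, from CXCL1 down to IL11 each gene's range overlapped that of the next. LIF, CXCL8 and TNF stood apart from their neighbours with the same lengths. In control the order of the level was LIF at 12.5 ± 0.840 CPM per kb, CXCL1 at 1.03 ± 0.432, CXCL3 at 0.604 ± 0.0673, IL23A at 0.531 ± 0.251, CXCL8 at 0.441 ± 0.0802, IL11 at 0.379 ± 0.0220, CXCL2 at 0.312 ± 0.0700 and CCL20 at 0.0375 ± 0.0399, with TNF and IL6 at 0. From CXCL3 down to CXCL2 the neighbours overlapped. Both orders depend on the length used. The exon length was 2219 bases for CXCL3, 2274 for CXCL8 and 1296 for CXCL1. The transcripts searched for 50-base stretches had 1075, 1705 and 1097 bases. TNF, at 1676 bases, and LIF, at 3969, had the same length in both. Whether the orders and the gaps between neighbours hold with transcript lengths was not tested.

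**Figure D4:**
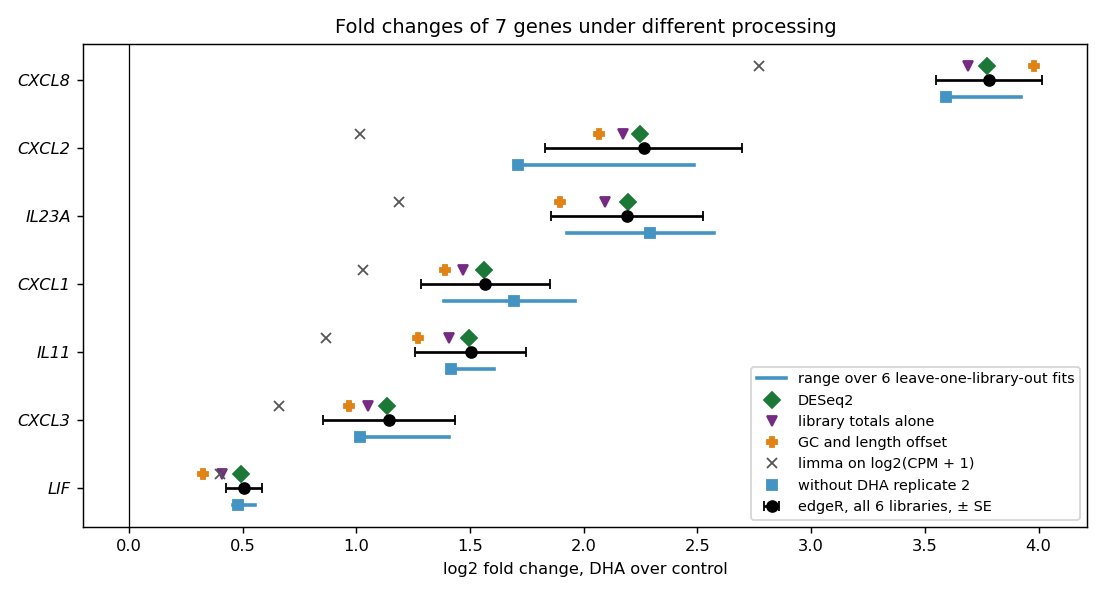
Log2 fold change of DHA over control for 7 genes, with edgeR's estimate ± SE in black, other tools and scalings as coloured symbols, and a blue bar for the range over fits that each leave out 1 library. Every value lies above 0, and the log2(CPM + 1) scale of limma pulls low genes towards 0. TNF is not drawn, since its control counts are 0.

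The 7 genes listed in the authors' deposited table were TNF, CXCL8, CXCL2, IL23A, CXCL1, IL11 and CXCL3, all marked up. The log2 fold changes of the authors' deposited table were 9.22 for TNF, 3.77 for CXCL8, 2.25 for CXCL2, 2.19 for IL23A, 1.56 for CXCL1, 1.49 for IL11 and 1.13 for CXCL3.

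Receptors for these ligands were unevenly present. Of 12 receptor chains, 6 were tested, 3 of them higher in DHA, 2 lower and 1 not passed. Their median log2 fold change was 0.19, where that of all genes tested was 0.01. Of all genes tested, 29.6% were called higher and 30.1% lower. TNFRSF1B, among the higher chains, entered the test through its DHA libraries alone, so this count and median are a description. Of the 5 chains that did not need their DHA libraries, 2 were higher. LIFR, the specific chain of the LIF receptor, fell to 165, 240 and 172 counts in DHA, against 546, 562 and 505 in control. Its log2 fold change was -1.23 ± 0.12 (SE), with an edgeR adjusted p of 3.83e-06, and -0.78 with an offset for GC content and length. IL6ST, the shared gp130 chain, was at 37.2 ± 1.176 CPM in DHA and 50.2 ± 5.32 CPM in control (SD, n = 3 each), a log2 fold change of -0.33 ± 0.09 that became 0.096 ± 0.08 with that offset and then no longer passed. IL11RA, the specific chain for IL11, had 78, 122 and 70 counts in DHA and 111, 116 and 80 in control and did not pass.

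TNFRSF1A, the widely expressed TNF receptor, was at 113 ± 7.23 CPM in DHA and 97.5 ± 8.09 CPM in control, a log2 fold change of 0.31 ± 0.08 whose call ended with the same offset, at 0.11. TNFRSF1B had 17, 13 and 11 counts in DHA and 7, 8 and 5 in control, which passed the filter through DHA alone, with a log2 fold change of 1.28 ± 0.39 that lost its call with DESeq2 and without the DHA library of replicate 1. IL6R, which binds IL6 itself, had 170, 257 and 132 counts in DHA and 158, 152 and 151 in control, and its log2 fold change of 0.52 ± 0.17 lost its call in 4 of 14 alternative settings. The chemokine receptors were at the limit of detection. CXCR1 had 3, 5 and 1 counts in DHA and 1, 0 and 0 in control, CXCR2 had 4, 4 and 2 in DHA and 4, 4 and 4 in control, and CCR6 had 0 in DHA and 0, 2 and 0 in control. IL23R and the scavenging receptor ACKR1 had 0 counts in all 6 libraries, and IL12RB1 had 2 counts or fewer in each.

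**Figure D5:**
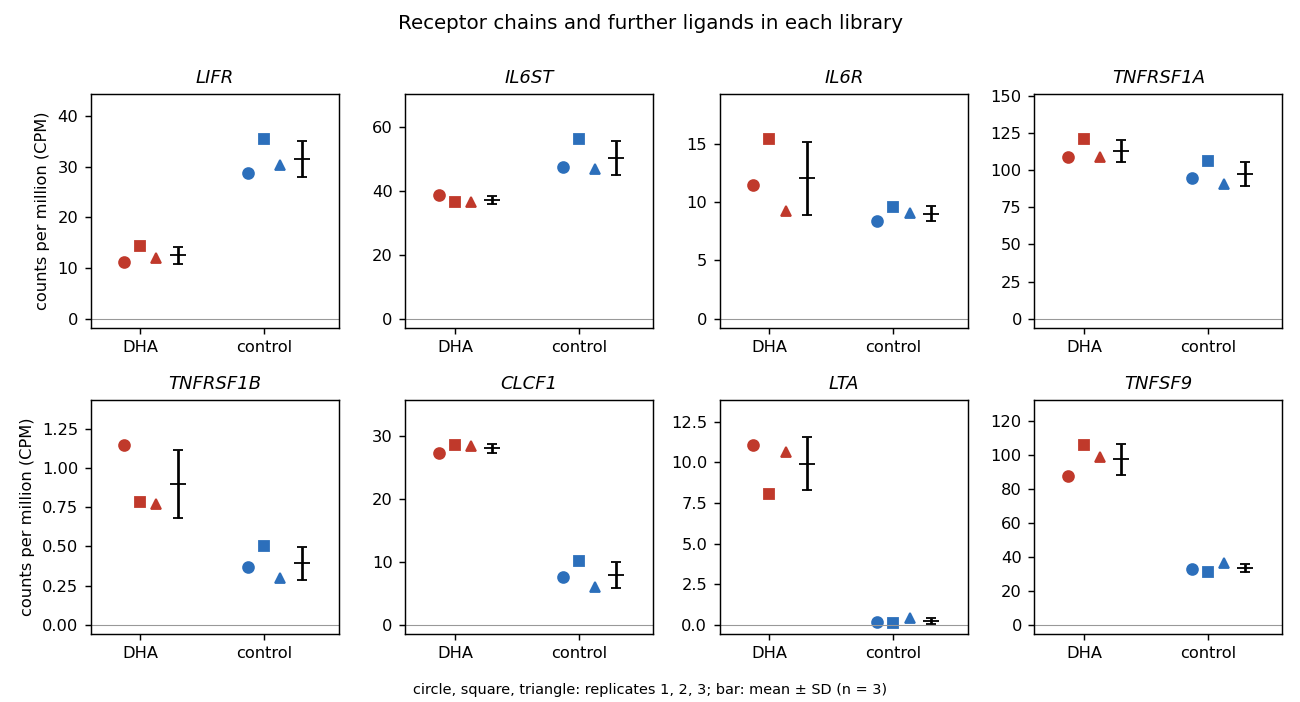
CPM of 5 receptor chains and 3 further ligands in each library, with DHA left of control, linear scales and bars giving the mean ± SD of 3 libraries. LIFR and IL6ST are lower in DHA, IL6ST only where no offset for GC content and length is used, while CLCF1, LTA and TNFSF9 are higher in DHA with no overlap.

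The wider set of cytokines and chemokines was mostly silent. Of 98 other interleukins, chemokines, colony stimulating factors and TNF superfamily ligands in the table, 29 had no count in any library, 55 had 3 counts or fewer in every library, and 22 were tested. Of these 22, 9 were higher in DHA, 1 was lower and 12 did not pass, beside 29.6% higher and 30.1% lower over all genes tested. Of the 9 higher ones, LTA, IL13, IL16, IL32, CSF3 and IL12B reached the low-count filter in no control library and so entered the test through DHA alone, which makes their calls a description. The other 3, CLCF1, TNFSF9 and IL18, reached it in all 6 libraries. Of the 22 genes, 13 did not need their DHA libraries to enter the test, and only these 3 of the 13 were higher. The count of 9 among 22 is therefore no excess over the share of all genes tested. CLCF1, a ligand of the gp130 family, had 403, 475 and 405 counts in DHA and 143, 159 and 100 in control. TNFSF9, a ligand that costimulates T cells, was at 97.6 ± 9.15 CPM in DHA and 33.5 ± 2.57 CPM in control (SD, n = 3 each). Their log2 fold changes were 1.93 ± 0.15 and 1.64 ± 0.09, with edgeR adjusted p of 8.08e-07 and 4.75e-08.

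Further genes called higher were low in control. IL13, a cytokine of type 2 immunity, had 56, 58 and 55 counts in DHA and 4, 6 and 2 in control, IL16 had 61, 49 and 36 in DHA and 5, 8 and 6 in control, and IL32 had 29, 36 and 15 in DHA and 4, 0 and 1 in control. Their log2 fold changes were 4.04 ± 0.33, 3.18 ± 0.34 and 4.15 ± 0.59, the last at 5.58 without the control library of replicate 1. These 3 genes were tested only because they were high in DHA, so the values are given without a p. CSF3, IL12B and IL18 were also called higher. The lower one was CXCL16, a chemokine that is also a scavenger receptor, at 46.9 ± 2.74 CPM in DHA and 59.1 ± 2.82 CPM in control (SD, n = 3 each), a log2 fold change of -0.24 ± 0.08. Its call was lost without DHA replicate 2 or 3 and without control replicate 1 or 2, each left out alone.

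Of 12 genes of TNF feedback, processing and related signalling, 8 were higher, 2 lower and 2 (TNIP1 and IL1RAP) did not pass. Their median log2 fold change was 0.46, where 29.6% of all genes tested were higher and 30.1% lower. No test of the list as a whole was run. ZFP36, whose protein binds AU-rich elements and speeds decay of TNF mRNA, rose by 3.73 ± 0.14 and SOCS3, an inhibitor of gp130 signalling, by 2.47 ± 0.07. TNFAIP3 and NFKBIA, inhibitors of NF-kB, rose by 1.48 ± 0.12 and 0.51 ± 0.08. ADAM17, the protease that sheds TNF, fell by 0.30 ± 0.08 and ELAVL1, which can stabilise AU-rich mRNAs, fell by 0.52 ± 0.09 on the log2 scale. The genes of this list were not followed through the alternative settings.

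Markers of other cell types were checked beside these results. The pan-leukocyte marker PTPRC and the T cell markers CD3D and CD2 had 0 counts in all 6 libraries, as had the fibroblast markers COL1A2, DCN and LUM. The 8 leukocyte and myeloid markers summed to between 9.86 and 12.2 CPM in DHA and between 2.97 and 3.75 CPM in control, and 3 of them were tested. ITGAM, which passed the filter in all 6 libraries, was higher in DHA by 1.13 ± 0.28 on the log2 scale, while CD14 and CSF1R reached the filter in 1 control library each and were tested, and called higher, through their DHA libraries. Fibroblast markers summed to between 70.6 and 93.1 CPM in DHA and between 21.0 and 29.6 CPM in control, nearly all of it COL1A1, the 5 lymphocyte markers summed to at most 0.270 CPM in DHA and 0.360 CPM in control, and the 4 endothelial markers to at most 2.04 CPM in DHA and 1.96 CPM in control. Epithelial markers summed to between 5474 and 5621 CPM in DHA and between 4239 and 4632 CPM in control, with VIL1 alone near zero. KRT8, KRT18 and KRT19 made up most of that sum and were called higher, CDH1 was called lower at -0.28 ± 0.07, and EPCAM and CDX2, at -0.08 each, did not pass. The part of the myeloid and fibroblast markers in the rises was not tested. The DHA library of replicate 2 differed more from the other DHA libraries, by a chi-square per gene of 14.9 and 15.1, than these did from each other, at 1.66. The control library of replicate 2 likewise differed from the other controls, by 8.99 and 8.60 against 3.33 between those. Without either library all 8 tested genes were still called higher, which is a description for TNF, CXCL2 and IL23A.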

How the data were processed

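Libraries were assigned to DHA (n = 3) or control (n = 3) from their treatment labels. The 10 genes and the gene lists were chosen with earlier results of these data known. The authors deposited raw read counts per gene, made after mapping with HISAT2, per the submitters' processing notes, which also name DESeq2 1.18.1. No source used here gives the counting tool, strand setting, annotation or build. One DHA title spells the drug differently, so the treatment label was used. Of the gene IDs, 39167 were found in GENCODE release 29 (GRCh38), 96.9% of them with the same start and end, so coordinates are those of the deposited table. The authors' deposited comparison table holds their own test's log2 fold changes with p-values. Another deposited table of the same libraries, named for FPKM but holding CPM, was not used here.

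Lines without a gene (32) were left out, and 1 row was kept for each of 143 names shared by 1696 genes with identical counts. The test used edgeR 4.0.16 under R 4.3.3: filterByExpr, TMM, glmQLFit and glmQLFTest on all 6 libraries, Benjamini-Hochberg adjustment over 15811 genes, calls at an adjusted p under 0.05. Standard errors come from the F statistic of the same test. For genes that needed their DHA libraries to pass the filter they are therefore a description too. limma 3.58.1 and DESeq2 1.42.0 gave alternatives. Motif searches and plots used Python 3.11.15, Biopython 1.88 and matplotlib 3.10.9. Promoter sequences are from RefSeq, and transcripts and exon lengths are from GENCODE. Single values between 3 and 3 libraries cannot go below p = 0.1 in an exact permutation test, so they were described only. Intervals and floors cover counting error only.

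Named list genes were those past the adjusted p with at least 10 counts on average, at most 6 per list, by the smallest adjusted p, with the main receptor chains; other genes were added after their values were seen. On simulated counts for this comparison, fitted for 14995 genes, the test found 98 of 100 genes with a true log2 change of 1 and 100 of 100 with one of 2, and made 10 false calls. The changed genes all had a control mean above 1 CPM, and every gene was given the same dispersion. Far fewer genes changed than were called in the data. The simulation therefore does not cover genes as low in control as TNF, CXCL2 and IL23A. Alternatives were other size factors, library totals alone, no filter, a filter at 1 CPM in 3 libraries, DESeq2, limma on log2(CPM + 1), the replicate number as a block, an offset for GC content and length, and each library left out.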

Additional observations from a re-analysis of the deposited data

How the results depend on the processing

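All 8 tested cytokine and chemokine genes were higher in DHA and past the threshold in each of 14 alternative settings. For TNF, CXCL2 and IL23A, which passed the filter through their DHA libraries, these calls are a description. The fits without 1 library kept the genes of the main filter. Leaving out 1 library at a time gave log2 fold changes from 9.61 to 9.75 for TNF, 3.59 to 3.92 for CXCL8, 1.71 to 2.49 for CXCL2, 1.39 to 1.96 for CXCL1, 1.02 to 1.41 for CXCL3, 1.42 to 1.61 for IL11, 0.46 to 0.55 for LIF and 1.93 to 2.57 for IL23A. On the log2(CPM + 1) scale the values were lower, at 2.82 for TNF, 2.77 for CXCL8, 1.02 for CXCL2 and 0.66 for CXCL3, by construction of the pseudocount. The offset for GC content and length was chosen after seeing the data. With it 3 of the 6 tested receptor chains were called in place of 5, and IL6ST turned to 0.096. The cause was not tested. The number of genes called over the whole table lay between 8171 and 10983, with 3852 higher and 5612 lower on library totals alone. Samples with the same replicate number did not deviate together, with correlations of 0.042, -0.17 and -0.14, and with the replicate block 8906 genes and the same 8 cytokine and chemokine genes were called. Depth limits IL6, CCL20 and the chemokine receptors, where a few counts decide any ratio.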
